A study of Mus musculus with 2 samples.

Results

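Foxo1, Foxo3, Btg1, Btg2, Tob1, Tob2, Ypel3, Tsc22d3, Txnip and Cdkn1b are 10 genes known from restraint of cell division, and their expression was compared between effector regulatory T cells of Nrn1-/- and Nrn1+/- mice. The genes were taken by symbol, each was found as 1 row, and they are 10 of 46398 distinct symbols. All 10 are among the 10695 protein-coding genes that averaged 1 FPKM or more over both libraries, where FPKM counts fragments for each kilobase of a transcript relative to the depth of the library. They were chosen with this comparison already known, so every difference between the genotypes given for them is a description and none was tested. Effector Treg cells carry the transcription factor Foxp3, restrain other immune cells and have an activated surface phenotype. Each genotype was sequenced as 1 library. The library of Nrn1+/- cells is titled wild type, although its genotype label is heterozygous. Both groups of mice were C57BL/6 and carried the Foxp3DTRgfp allele, which places a diphtheria toxin receptor and green fluorescent protein under Foxp3, and both were sorted as CD4+, CD25+, with an effector surface phenotype that included high CD44, and positive for the fluorescent protein. Age, sex, tissue and the number of mice per library are not given in the labels. Nrn1 encodes neuritin, a small protein held on the cell surface by a lipid anchor.

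Lymphocytes that are not dividing keep a set of genes active that hold back growth and the cell cycle. FOXO proteins are transcription factors at the centre of this state: they enter the nucleus when signalling through PI3K and AKT is low, and they bind DNA at variants of the sequence GTAAACAA. BTG and TOB proteins recruit the CCR4-NOT deadenylase, which shortens the poly(A) tails of messenger RNAs. Txnip, Tsc22d3 and Cdkn1b are known FOXO targets that limit glucose uptake, transmit glucocorticoid signals and inhibit cyclin-dependent kinases.

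Each of the 10 genes was lower in the Nrn1-/- library, whereas 45.7% of the protein-coding genes compared were lower. Together they summed to 382 FPKM in Nrn1-/- cells and 640 FPKM in Nrn1+/- cells. Ypel3, Tsc22d3, Txnip, Cdkn1b and Btg1 were at least 1.5-fold lower on the log2 scale with a pseudocount of 1 FPKM, which is 5 of 10 genes beside 3.69% of all protein-coding genes compared, and Ypel3 alone was at least 2-fold lower, beside 0.262% of all genes. With the same protein-coding sum in both libraries, Tsc22d3, Txnip and Cdkn1b were past 2-fold as well, at log2 ratios of -1.07, -1.05 and -1.02. They were also past 2-fold with a sum of 1000000 in each library. A scaling shifts all ratios together: 6.98% of all genes were at least 1.5-fold lower under the first and 14.4% under the second. The share of all genes past 2-fold was not counted under these 2 scalings. In the opposite direction, 54.3% of all genes were higher, 7.01% at least 1.5-fold and 1.21% at least 2-fold, and none of the 10 was. The balance of all genes moved with the scaling: as deposited 395 were at least 1.5-fold lower and 750 higher, with the same protein-coding sum in both libraries 746 were lower and 462 higher, and with a sum of 1000000 in each 1545 were lower and 253 higher. As the genes were picked on this contrast, nothing is read from that excess. The median log2 ratio of the 10 genes was -0.52, from -1.04 for Ypel3 to -0.07 for Tob2, beside a median of 0.04 over all protein-coding genes compared. With no replicates, no difference here can be set against the spread between mice, and in bulk RNA fewer cells with a high level and less RNA per cell cannot be told apart.

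**Figure D1:**
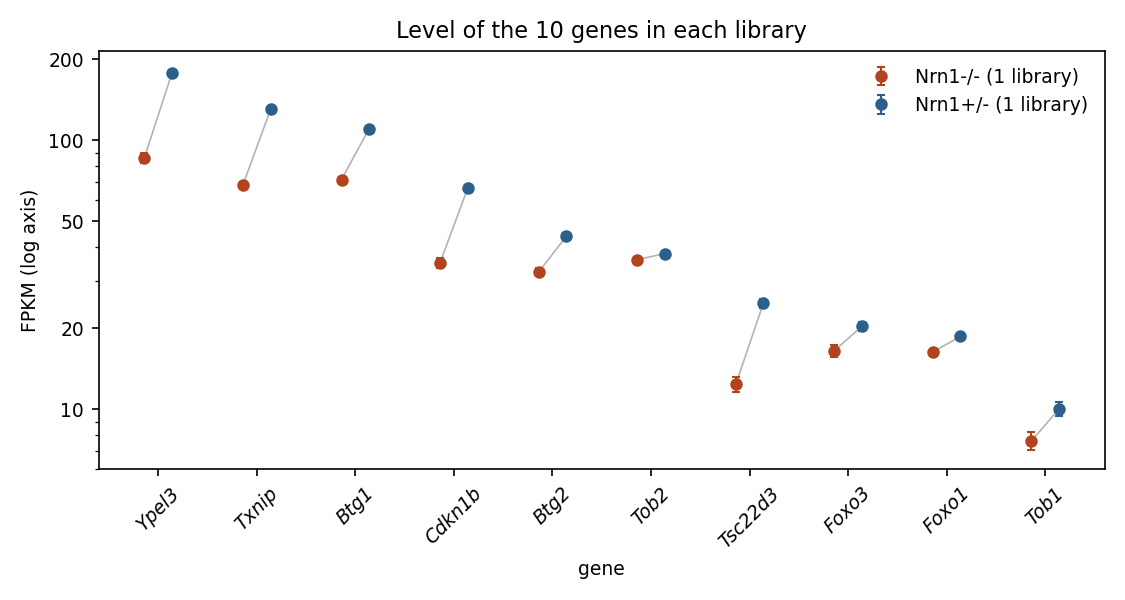
Level of each of the 10 genes in FPKM (log axis) in the Nrn1-/- library (red, left) and the Nrn1+/- library (blue, right), 1 library each. Bars are 95% intervals that cover counting error only; Ypel3 (86.1 against 178 FPKM) shows the widest gap and Tob2 (36.0 against 37.9 FPKM) the narrowest.

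The 10 genes spanned a wide range of levels, and their order changed between the libraries. In the Nrn1-/- library the order ran from Ypel3 through Btg1, Txnip, Tob2, Cdkn1b, Btg2, Foxo3, Foxo1 and Tsc22d3 to Tob1. In the Nrn1+/- library it ran from Ypel3 through Txnip, Btg1, Cdkn1b, Btg2, Tob2, Tsc22d3, Foxo3 and Foxo1 to Tob1. Ypel3, Txnip and Btg1 supplied 59.1% of the summed FPKM in Nrn1-/- cells and 65.4% in Nrn1+/- cells. In the Nrn1-/- library Tob2 and Cdkn1b could not be ordered within counting error, with intervals of 35.0 to 36.9 and 33.6 to 36.5 FPKM, and nor could Foxo3 and Foxo1, with intervals of 15.7 to 17.4 and 15.9 to 16.8 FPKM. Low ratios were found at high and at moderate levels among the 10. Ypel3 lay at percentile 93.5 of expression level, Txnip at 90.5 and Btg1 at 89.5, while Tsc22d3, with the second lowest ratio, lay at 50.9. Of the 1004 genes that averaged 100 FPKM or more, as Ypel3 did, 25.9% were lower and the median log2 ratio was 0.20. Of the 1240 genes between 50 and 100 FPKM, as Btg1, Txnip and Cdkn1b were, 35.5% were lower and the median was 0.13. The 4 genes between 5 and 20 FPKM, Foxo1, Foxo3, Tob1 and Tsc22d3, sat where the median of all genes was -0.01.

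**Figure D2:**
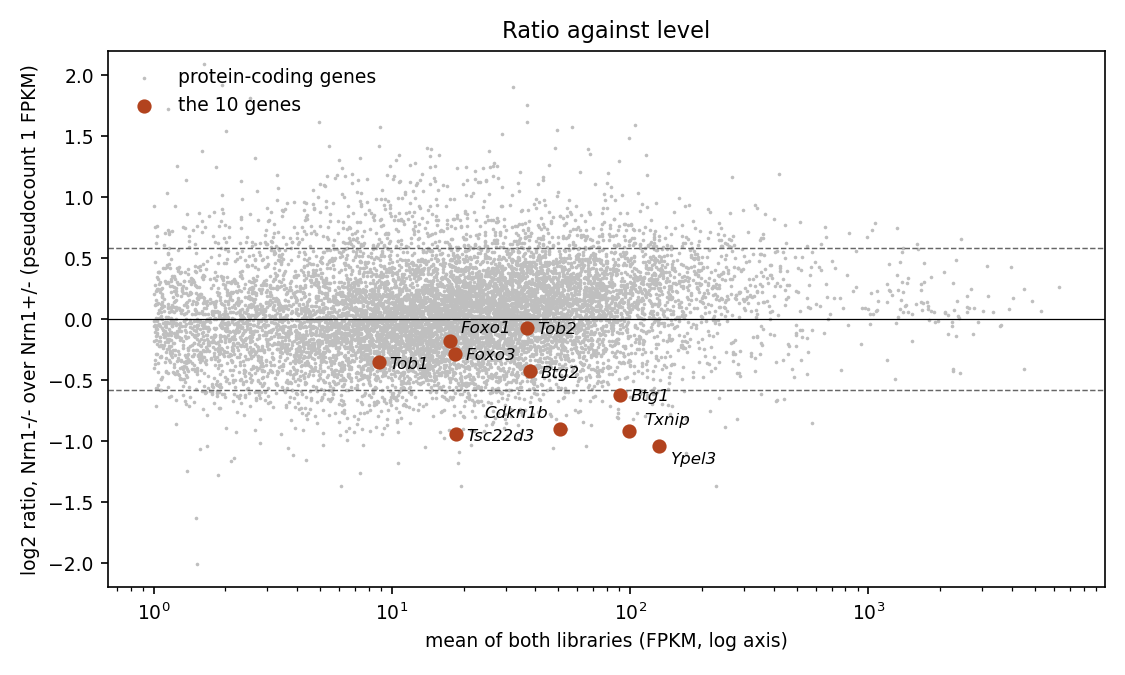
Log2 ratio of Nrn1-/- over Nrn1+/- (pseudocount 1 FPKM) against the mean FPKM of both libraries (log axis), with each protein-coding gene in grey and the 10 genes in red. Dashed lines mark 1.5-fold; Ypel3, Txnip, Cdkn1b, Tsc22d3 and Btg1 lie below the lower line and the other 5 between it and 0; Nrn1, at -3.59, lies below the range drawn.

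The promoters of the 3 most abundant of these genes, Ypel3, Txnip and Btg1, share the FOXO binding sequence, and for that reason they are shown here. The windows run from 250 bases before to 50 bases after the RefSeq transcription start on GRCm38.p6, 5′ to 3′ along the gene, with the word GTAAACAA or its reverse complement in capitals. The Ypel3 window is chr7:126776713-126777012, the Txnip window chr3:96557707-96558006 and the Btg1 window chr10:96616751-96617050, each on the plus strand.
Ypel3: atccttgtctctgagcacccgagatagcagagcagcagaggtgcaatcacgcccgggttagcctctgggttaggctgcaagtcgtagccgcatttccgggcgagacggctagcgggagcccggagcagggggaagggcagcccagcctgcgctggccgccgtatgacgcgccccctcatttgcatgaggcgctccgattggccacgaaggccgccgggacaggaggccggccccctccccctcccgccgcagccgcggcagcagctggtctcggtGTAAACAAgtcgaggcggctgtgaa
Txnip: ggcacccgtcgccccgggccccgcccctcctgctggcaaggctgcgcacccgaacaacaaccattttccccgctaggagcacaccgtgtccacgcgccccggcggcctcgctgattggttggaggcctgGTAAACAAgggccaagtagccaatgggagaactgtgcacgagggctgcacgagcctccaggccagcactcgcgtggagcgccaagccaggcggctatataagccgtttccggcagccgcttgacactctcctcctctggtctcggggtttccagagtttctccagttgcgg
Btg1: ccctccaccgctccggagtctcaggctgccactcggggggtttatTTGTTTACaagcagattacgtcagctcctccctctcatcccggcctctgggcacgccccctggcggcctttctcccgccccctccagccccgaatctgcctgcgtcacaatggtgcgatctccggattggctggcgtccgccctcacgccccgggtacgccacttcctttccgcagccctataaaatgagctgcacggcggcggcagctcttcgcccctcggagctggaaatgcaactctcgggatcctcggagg
In the Ypel3 window the word lies downstream of the start, at bases 26 to 33. In Txnip it spans bases -121 to -114, between CCAAT words at -137 to -133 and -102 to -98. In Btg1 it is on the opposite strand at bases -205 to -198. Searched on both strands, GTAAACAA was present in 403 of 32851 windows (1.23%) and in the windows of 79 of 8220 compared protein-coding genes with a window (0.961%), against 3 of these 10. The search covered 15 words, and the shorter GTAAACA, which the longer word contains, was in 3.04% of genes and in the same 3 of these 10. The still shorter TAAACA, which was in 9.82% of compared genes, was also found in Cdkn1b. The 3 windows of Tsc22d3 and the windows of Foxo1, Foxo3, Btg2, Tob1 and Tob2 lacked the 8-letter word, which says only that these letters are not in those windows.

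Other genes with the same word went both ways between the genotypes. Of the 76 compared genes with GTAAACAA that are not among the 10, 41 (53.9%) were lower in Nrn1-/- cells, beside 45.7% of all genes. The median log2 ratio of the 76 was -0.05, beside 0.04 over all genes. Past 1.5-fold, 4 (5.26%) were lower, beside 3.69% of all genes, and 4 were higher. The 4 lower ones, named after their values were seen, were Tmem140 at 2.05 FPKM in Nrn1-/- cells and 4.84 FPKM in Nrn1+/- cells, Frat2 at 7.66 against 14.2 FPKM, Sfxn3 at 14.1 against 24.6 FPKM and Ccdc28a at 7.59 against 13.2 FPKM. The shorter GTAAACA was in 250 compared genes, 3 of them among the 10. Of these 250, with those 3 left in, 7.2% were at least 1.5-fold lower, beside 3.58% of genes without it. Those 3 were picked on this contrast and are themselves past 1.5-fold lower, so nothing is read from that difference. Of the other words, the cyclic AMP response element TGACGTCA was in 1 of the 10 genes, Btg2, at bases -166 to -159, and in 3.82% of compared genes, while the E-box CACGTG was in none of the 10 and in 12.1% of compared genes.

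Among the FOXO factors none was past 1.5-fold as deposited. Foxo1, the main FOXO protein of T cells, which drives homing and survival genes and is needed for regulatory T cell function in mice, was at 16.3 FPKM in Nrn1-/- cells and 18.6 FPKM in Nrn1+/- cells, 1.14-fold lower with a 95% counting interval of 1.10 to 1.18. Foxo3, which overlaps with Foxo1 in binding and restrains survival signals, was at 16.5 FPKM in Nrn1-/- cells and 20.3 FPKM in Nrn1+/- cells, 1.23-fold lower with a counting interval of 1.16 to 1.31. Foxo4, their relative outside the 10, was at 11.2 against 15.6 FPKM, a log2 ratio of -0.44. With a sum of 1000000 in each library that ratio was -0.71, past 1.5-fold lower. The ratio of Foxo1 to Foxo3 within a library, which does not depend on how libraries are scaled, was 0.989 in Nrn1-/- cells and 0.917 in Nrn1+/- cells. Foxo6 was listed at 0.0416 FPKM in Nrn1-/- cells and at 0 in Nrn1+/- cells. Foxo1 (ENSMUSG00000044167, chromosome 3, 52268336 to 52353221, plus strand) overlaps the antisense gene Gm20402 near its start, and that row held 27.5 FPKM in Nrn1-/- cells and 29.8 FPKM in Nrn1+/- cells. The labels name no strand-specific kit, so reads of Foxo1 and Gm20402 over the shared bases cannot be told apart.

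Genes known as FOXO targets in lymphocytes were mostly lower as well. Of 16 on the list, 13 passed the filter of a mean of 1 FPKM. Of these 13, 12 were lower in Nrn1-/- cells, beside 45.7% of all genes. Their median log2 ratio was -0.48, beside 0.04 over all genes. In 3 the difference was at least 1.5-fold, each time lower, and among them were Klf2, a factor that controls lymphocyte trafficking (47.4 against 75.7 FPKM), and Il7r, the receptor for the survival cytokine IL-7 (13.2 against 20.4 FPKM). The number past 1.5-fold grew to 8 with the same protein-coding sum in both libraries and to 11 with a sum of 1000000 in each. The share of all genes at least 1.5-fold lower grew too, from 3.69% as deposited to 6.98% and 14.4%. Of 24 general FOXO targets, all of which passed the filter, 17 were lower, and the median was -0.31. In 4 the difference was at least 1.5-fold, each time lower. Those 4 were Pink1, a kinase of mitochondrial quality control (24.2 against 46.4 FPKM), Ccng2, an unconventional cyclin that slows division (13.0 against 23.3 FPKM), Fbxo32, a ubiquitin ligase subunit known from muscle atrophy (1.95 against 3.63 FPKM), and Ddit4, an inhibitor of mTORC1 (78.1 against 122 FPKM). With a sum of 1000000 in each library 23 were lower and 13 past 1.5-fold. The median log2 ratio over all genes was then -0.23, and 14.4% of all genes were past 1.5-fold lower.

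Genes that regulate FOXO proteins went both ways. Of 23 kinases, 14-3-3 proteins and other partners, 12 were lower and 11 higher, with a median log2 ratio of -0.02, and the balance was 17 lower to 6 higher with a sum of 1000000. Only Skp2, a ubiquitin ligase subunit that targets FOXO1 and p27 (7.41 against 3.62 FPKM), and Cdk2, a kinase of S phase entry that can phosphorylate FOXO1 (42.9 against 27.5 FPKM), were at least 1.5-fold higher, and none was 1.5-fold lower. Skp2 alone was past 1.5-fold higher with a sum of 1000000, and 3 genes were then past 1.5-fold lower, beside 14.4% of all genes. FOXO activity is set largely by where the protein is in the cell, which RNA levels do not measure.

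The BTG and TOB genes, whose products slow division by speeding messenger RNA decay, split by member. Btg1, an antiproliferative gene that is high in resting lymphocytes (ENSMUSG00000036478, chromosome 10, 96617006 to 96622809, plus strand), was at 71.4 FPKM in Nrn1-/- cells and 110.3 FPKM in Nrn1+/- cells, 1.55-fold lower with a counting interval of 1.51 to 1.58. Btg2, a close relative that p53 and antigen signals induce, was at 32.4 FPKM in Nrn1-/- cells and 43.9 FPKM in Nrn1+/- cells, 1.36-fold lower (1.30 to 1.42). Tob1, known as a brake on T cell activation, was at 7.62 FPKM in Nrn1-/- cells and 10.03 FPKM in Nrn1+/- cells, 1.32-fold lower (1.19 to 1.45). Tob2, its paralog, was at 36.0 FPKM in Nrn1-/- cells and 37.9 FPKM in Nrn1+/- cells, 1.05-fold lower (1.02 to 1.09), the smallest difference of the 10. Within the family Btg3 ran the other way, at 20.4 FPKM in Nrn1-/- cells and 15.7 FPKM in Nrn1+/- cells, a direction that held under each scaling tried. The ratio of Btg1 to Btg3 was therefore 3.49 in Nrn1-/- cells and 7.03 in Nrn1+/- cells, while that of Btg1 to Btg2 was 2.21 in Nrn1-/- cells and 2.51 in Nrn1+/- cells. Btg4 and the copies Btg1-ps1 and Btg1-ps2 were listed at 0 in both libraries.

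The deadenylase that BTG and TOB proteins act through did not differ in the same way. Of 16 genes of the CCR4-NOT and PAN complexes and their poly(A)-binding partners, 6 were lower and 10 higher, with a median log2 ratio of 0.10, and with a sum of 1000000 13 were lower. Pabpc4, a poly(A)-binding protein induced in activated T cells, was the only one past 1.5-fold, at 109 FPKM in Nrn1-/- cells and 61.5 FPKM in Nrn1+/- cells. Its log2 ratio was 0.53, under 1.5-fold, with a sum of 1000000. Then 3 of the 16 were past 1.5-fold lower, beside 14.4% of all genes. Since Btg2 is also known as an early response gene and a p53 target, both groups were set beside it. Of 17 immediate early genes that passed the filter, 8 were lower and none was past 1.5-fold in either direction, with a median of 0.01, and their largest differences were those of Dusp1 (16.7 against 24.9 FPKM) and Jun (60.2 against 86.1 FPKM). The sum of 1000000 left 15 of the 17 lower, 3 of them past 1.5-fold, beside 14.4% of all genes past 1.5-fold lower. Of 11 p53 targets 8 were lower with a median of -0.05, and 1 was past 1.5-fold, Trp53inp1, which promotes autophagy and cell death (30.6 against 64.8 FPKM).

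Ypel3 had the lowest ratio of the 10 genes. It encodes a small zinc-binding protein of the yippee-like family whose human counterpart is known to halt proliferation (ENSMUSG00000042675, chromosome 7, 126776955 to 126780514, plus strand, 11 annotated transcripts). It was at 86.1 FPKM in Nrn1-/- cells and 178 FPKM in Nrn1+/- cells, 2.07-fold lower with a counting interval of 1.96 to 2.18, and rank 24 from the lowest ratio among the 10695 genes. Its relatives outside the 10 were lower too: Ypel5 at 7.24 against 13.8 FPKM, Ypel2 at 2.85 against 4.76 FPKM, Ypel1 at 1.03 against 1.65 FPKM and Ypel4, which missed the filter, at 0.635 against 1.10 FPKM. The ratio of Ypel3 to Ypel5 was 11.9 in Nrn1-/- cells and 12.9 in Nrn1+/- cells. Tbx6, a T-box factor gene that starts 969 bases beyond Ypel3 on the same strand, was at 2.88 FPKM in Nrn1-/- cells and 5.43 FPKM in Nrn1+/- cells, a log2 ratio of -0.73.

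Tsc22d3 encodes GILZ, a leucine zipper protein that glucocorticoids and FOXO factors induce in lymphocytes and that mediates part of the anti-inflammatory action of glucocorticoids (ENSMUSG00000031431, chromosome X, 140539528 to 140600659, minus strand). It was at 12.4 FPKM in Nrn1-/- cells and 24.7 FPKM in Nrn1+/- cells, 2.002-fold lower with a counting interval of 1.85 to 2.16. Its relatives were closer to equal, with Tsc22d4 at 90.9 against 93.2 FPKM, Tsc22d2 at 11.1 against 11.9 FPKM and Tsc22d1 at 6.14 against 8.63 FPKM. The ratio of Tsc22d3 to Tsc22d4 was 0.136 in Nrn1-/- cells and 0.265 in Nrn1+/- cells. Glucocorticoid response genes were mostly lower: of 13 that passed the filter 10 were lower and 3 higher, with a median log2 ratio of -0.30. Besides Il7r and Ddit4, which other lists hold too, those at least 1.5-fold lower were Anxa1, an anti-inflammatory annexin (2.07 against 5.64 FPKM), and Cxcr4, a chemokine receptor (14.3 against 25.8 FPKM). Fkbp4, a chaperone of the glucocorticoid receptor, was at least 1.5-fold higher, at 184 FPKM in Nrn1-/- cells and 113 FPKM in Nrn1+/- cells. Also higher, under 1.5-fold, were Fkbp5 at 36.1 against 24.2 FPKM and Hsp90ab1 at 1973 against 1437 FPKM, so the list was not uniformly lower. With a sum of 1000000, 7 of the 13 were past 1.5-fold lower, beside 14.4% of all genes, and none past 1.5-fold higher.

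Txnip binds thioredoxin and removes glucose transporters from the cell surface, and its transcription follows glucose metabolites through MondoA and Mlx (ENSMUSG00000038393, chromosome 3, 96557957 to 96561883, plus strand). It was at 68.3 FPKM in Nrn1-/- cells and 130.1 FPKM in Nrn1+/- cells, 1.91-fold lower with a counting interval of 1.85 to 1.96. The arrestin-domain relatives were lower to differing degrees: Arrdc4, which responds to glucose in the same way, was at 4.01 against 7.53 FPKM, Arrdc3, a regulator of receptor trafficking, at 4.32 against 7.64 FPKM, Arrdc1 at 56.2 against 70.5 FPKM and Arrdc2 at 7.11 against 7.46 FPKM, while Arrdc5 was listed at 0 in both libraries. Gm15441, antisense to Txnip, was at 0.161 against 0.334 FPKM. Gm49476, antisense to Tob2, was not analysed here.

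The genes around Txnip in thioredoxin and glucose biology ran the other way. Of 11 that passed the filter, 10 were higher in Nrn1-/- cells, and 7 were higher with a sum of 1000000. The median log2 ratio was 0.36. Hk2, a hexokinase of glycolytic cells, was the only one past 1.5-fold, at 32.7 FPKM in Nrn1-/- cells and 18.2 FPKM in Nrn1+/- cells, and with a sum of 1000000 its log2 ratio was 0.53, under 1.5-fold. The ratio of Txnip to Txn1, the thioredoxin it binds, was 0.158 in Nrn1-/- cells and 0.435 in Nrn1+/- cells, a 2.74-fold difference that no scaling of the libraries can alter.

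Cdkn1b encodes p27, which binds and inhibits cyclin E and cyclin A kinases and keeps T cells out of S phase (ENSMUSG00000003031, chromosome 6, 134920401 to 134925513, plus strand). It was at 35.0 FPKM in Nrn1-/- cells and 66.2 FPKM in Nrn1+/- cells, 1.89-fold lower with a counting interval of 1.80 to 1.99. Of its relatives, Cdkn1a, the p53-induced inhibitor p21, was at 154 FPKM in Nrn1-/- cells and 168 FPKM in Nrn1+/- cells, and Cdkn1c was at 0.914 against 1.51 FPKM. The ratio of Cdkn1b to Cdkn1a was 0.228 in Nrn1-/- cells and 0.394 in Nrn1+/- cells.

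The partners of p27 and the ligase that degrades it were mostly higher. Of 16 that passed the filter 14 were higher and 7 passed 1.5-fold. The median log2 ratio was 0.38. With a sum of 1000000, 9 were higher and 4 passed 1.5-fold. Ccne1, cyclin E1, was at 34.4 FPKM in Nrn1-/- cells and 15.1 FPKM in Nrn1+/- cells, Ccne2 at 14.4 against 7.83 FPKM and Ccna2, cyclin A2, at 70.8 against 26.2 FPKM. Cks1b, the cofactor with which Skp2 recognises p27, was at 97.4 against 44.7 FPKM, and Cdk4, a kinase of the G1 phase, at 449 against 276 FPKM. The ratio of Cdkn1b to Ccne1 was 1.02 in Nrn1-/- cells and 4.40 in Nrn1+/- cells, and that of Cdkn1b to Cdk2 was 0.816 in Nrn1-/- cells and 2.40 in Nrn1+/- cells. These are ratios of RNA levels per length, and p27 itself is controlled largely by protein decay, which was not measured.

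**Figure D3:**
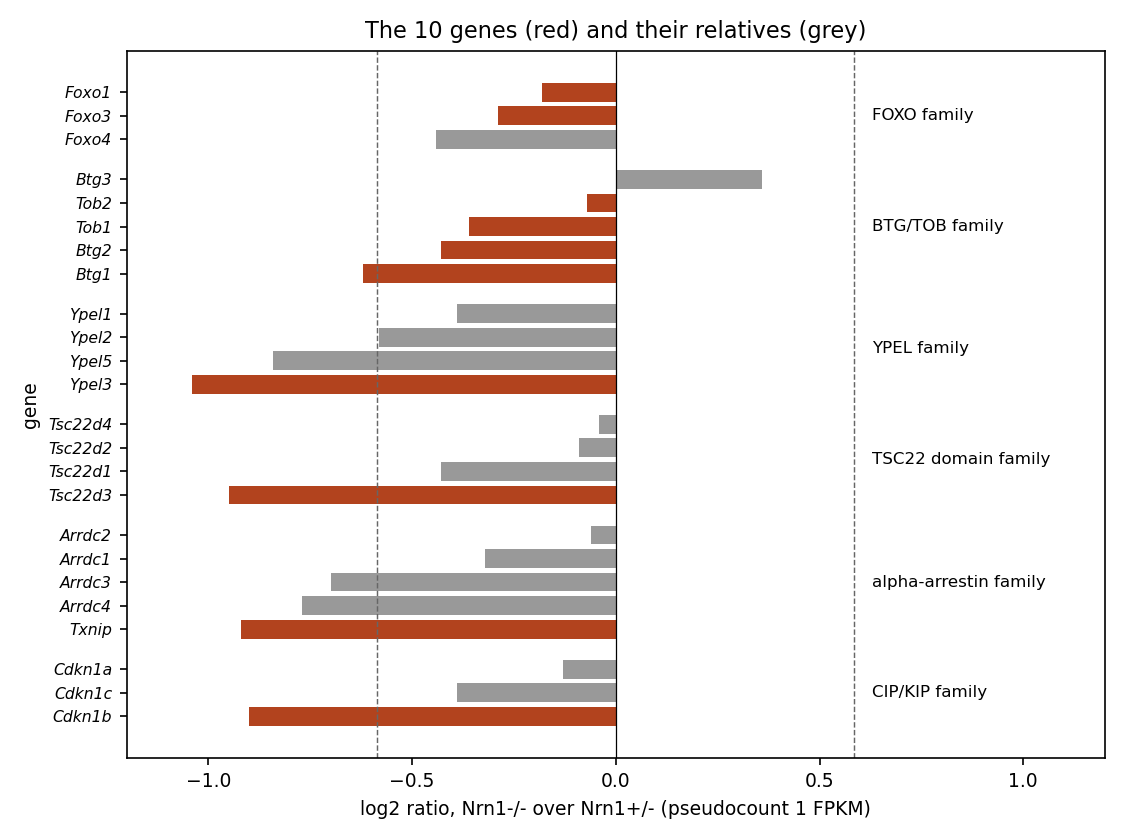
Log2 ratio of Nrn1-/- over Nrn1+/- (pseudocount 1 FPKM) for each gene of the 6 families with a mean of at least 1 FPKM, with the 10 genes in red and their relatives in grey; dashed lines mark 1.5-fold. Btg3 is the only bar to the right of 0.

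Over the 6 families, 18 relatives lie outside the 10 genes and were not used to choose them. Of these, 14 passed the filter and 13 were lower in the Nrn1-/- library, a count that was 13 under each scaling tried. Their median log2 ratio was -0.39. With the pseudocount of 1 FPKM, 3 were at least 1.5-fold lower, namely Ypel5, Arrdc4 and Arrdc3. The number past 1.5-fold was 7 with a sum of 1000000 and 4 under each of the other 3 scalings. With a sum of 1000000, 14.4% of all genes were at least 1.5-fold lower. Without a pseudocount, Ypel2 (1.67-fold), Cdkn1c (1.66-fold) and Ypel1 (1.60-fold) were past 1.5-fold lower too. As deposited and with the pseudocount, 45.7% of all genes were lower and 3.69% at least 1.5-fold lower. The list was drawn up with earlier results of these data known. Of 19 other regulators of T cell quiescence that passed the filter 16 were lower with a median of -0.33, and those past 1.5-fold were Mxd4, a MYC antagonist (16.0 against 28.7 FPKM), Klf2, and Dgka, a diacylglycerol kinase that dampens receptor signals (92.9 against 143 FPKM). With a sum of 1000000, 10 of these regulators were past 1.5-fold lower, beside 14.4% of all genes.

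**Figure D4:**
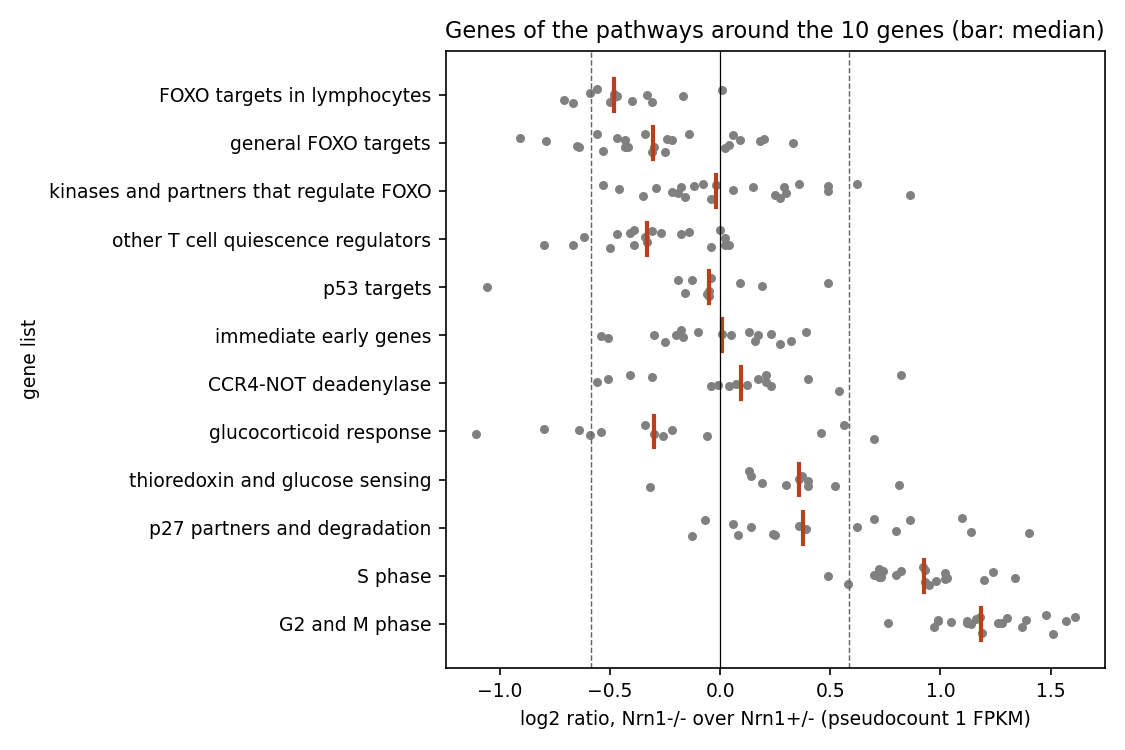
Log2 ratio of Nrn1-/- over Nrn1+/- (pseudocount 1 FPKM) for each gene (grey point) of 12 lists around the 10 genes, with the median of a list as a red bar and 1.5-fold as dashed lines; genes shared by lists appear in each. Medians run from -0.48 for FOXO targets in lymphocytes to 1.19 for G2 and M phase genes.

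Other features of the libraries moved with these genes. Nrn1 was at 4.62 FPKM in Nrn1-/- cells and 66.5 FPKM in Nrn1+/- cells, so the labels matched the targeted gene. All 20 S phase genes and all 20 G2 and M phase genes listed were higher in the Nrn1-/- library under each scaling tried, with median log2 ratios of 0.92 and 1.19. Of the S phase genes, Rrm2, a ribonucleotide reductase subunit, was at 167 FPKM in Nrn1-/- cells and 65.2 FPKM in Nrn1+/- cells, and the 5 next largest were Cdc6, Uhrf1, Tyms, Rrm1 and Cdc45. Of the G2 and M phase genes, Ccnb1, cyclin B1, was at 56.2 FPKM in Nrn1-/- cells and 17.7 FPKM in Nrn1+/- cells, and the 5 next largest were Cdc20, Plk1, Cdk1, Birc5 and Aurka. These genes moved opposite to the 10, and their part in the lower level of the 10 genes was not tested. The defining markers of regulatory T cells were present, with Foxp3 at 195 FPKM in Nrn1-/- cells and 257 FPKM in Nrn1+/- cells, and all 8 of that list were lower, by the most in Lrrc32 (116 against 173 FPKM) and Nrp1 (17.6 against 26.5 FPKM). The 8 general T cell markers summed to 2308 FPKM in Nrn1-/- cells and 2664 FPKM in Nrn1+/- cells. Of 8 markers of naive T cells 6 were lower, and their sum was 458 FPKM in Nrn1-/- cells and 579 FPKM in Nrn1+/- cells. Il7r was among the 2 that were past 1.5-fold lower. That number was 4 with a sum of 1000000, where 14.4% of all genes were past 1.5-fold lower. Dapl1 was higher at 13.3 FPKM in Nrn1-/- cells and 4.34 FPKM in Nrn1+/- cells. None of these 8 was at 0, and the part of cells with a naive profile in the result was not tested. Markers of other cells were low beside those of T cells but not absent. In Nrn1-/- and Nrn1+/- cells the 8 B cell markers summed to 8.96 and 6.25 FPKM. In that order the 8 myeloid markers summed to 9.86 and 11.5 FPKM, and the 5 CD8 T cell markers to 8.76 and 9.11 FPKM. The 5 NK cell markers summed to 4.32 and 5.50 FPKM, and the 6 dendritic cell markers to 2.38 and 2.96 FPKM. The 5 erythroid markers summed to 0.368 and 0.615 FPKM. Csf1r was listed at 0 in Nrn1-/- cells, the erythroid markers Hbb-bs and Hba-a1 were each at 0 in 1 library, and the dendritic markers Siglech and Clec9a were at 0 in both libraries.

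Most of the 10 genes have few exons. In GENCODE M21, 9 of 10 had at most 4 exons in their principal transcript, beside 20.02% of 10594 compared genes, and Txnip had 8. Their 3′ untranslated regions had a median length of 2328 bases beside 985 bases over all genes, with 6240 bases in Foxo1, 4166 in Btg1 and 3439 in Cdkn1b. The pentamer ATTTA, the core of AU-rich decay elements, occurred at least 3 times in 7 of these untranslated regions beside 34.1% of all genes, with 13 copies in Foxo1, 11 in Btg1 and 10 in Cdkn1b but none in Ypel3 or Txnip. Genes with at most 4 exons and at least 3 copies numbered 652, had a median log2 ratio of -0.03 and were at least 1.5-fold lower in 4.60% of cases, beside 3.69% of all genes. These thresholds on exons and copies were set after the values were seen. The genes lay on 8 chromosomes, and of their 20 nearest protein-coding neighbours 9 passed the filter. Of these 9, 4 were lower, and besides Tbx6 only Prps1 next to Tsc22d3 was past 1.5-fold, at 89.7 FPKM in Nrn1-/- cells and 57.5 FPKM in Nrn1+/- cells.

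**Figure D5:**
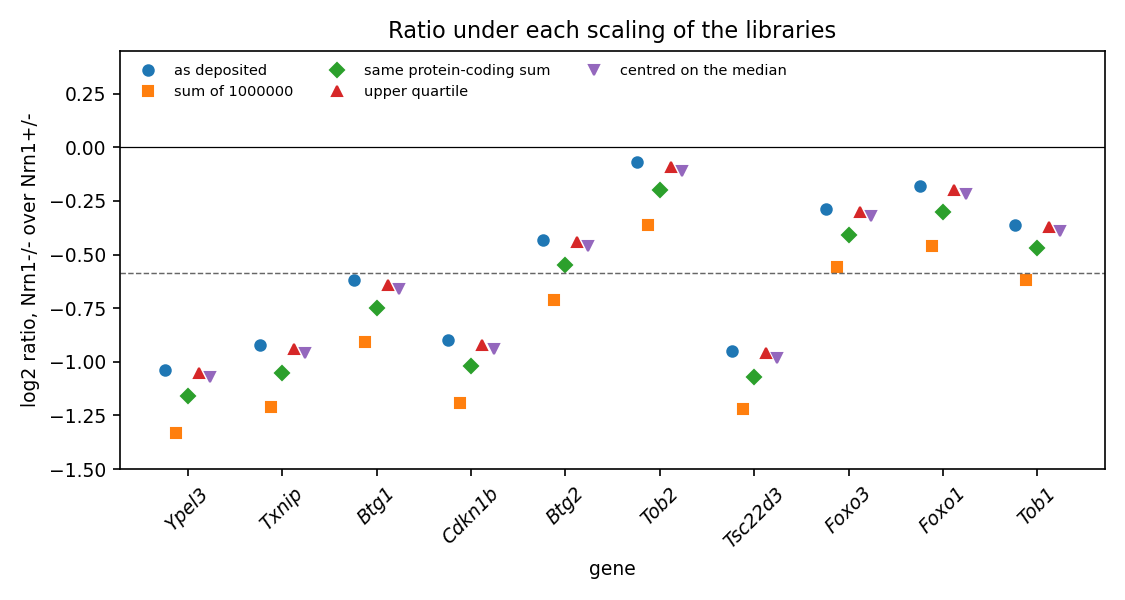
Log2 ratio of Nrn1-/- over Nrn1+/- for each of the 10 genes as deposited and under 4 other scalings of the libraries; the dashed line marks 1.5-fold lower. No point lies above 0, and Ypel3 runs from -1.33 with a sum of 1000000 to -1.04 as deposited.

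The 10 genes were lower under each scaling of the libraries that was tried. As deposited, all rows summed to 790935 FPKM in Nrn1-/- cells and 645876 FPKM in Nrn1+/- cells, and protein-coding rows to 647545 and 593035 FPKM. Over the 4 other scalings and 2 other pseudocounts, the log2 ratio ranged from -1.33 to -1.01 for Ypel3, from -1.22 to -0.78 for Tsc22d3, from -1.21 to -0.88 for Txnip, from -1.19 to -0.83 for Cdkn1b and from -0.91 to -0.59 for Btg1. It ranged from -0.46 to -0.15 for Foxo1 and from -0.36 to -0.07 for Tob2. With a sum of 1000000, Btg2 and Tob1 also passed 1.5-fold, which made 7 of 10 genes beside 14.4% of all genes.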

How the data were processed

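Poly(A) RNA of sorted cells was sequenced, per the labels' protocols, after oligo-dT selection and randomly primed NEBNext Ultra libraries, with groups taken from the genotype labels. The deposited values are FPKM, 1 per gene, as the authors made them. No unit stands in the file headers; it was read from the values and from Cuffnorm, named with TopHat, Cuffdiff and FastQC in the submitters' processing notes beside the builds mm10 and GRCm38. How the authors annotated, filtered or scaled the libraries is not stated in the labels.

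Rows of 1 symbol were summed (82 symbols). The ratio was log2((Nrn1-/- + 1)/(Nrn1+/- + 1)), which understates differences of low genes. Every statement that genes were at least or past 1.5-fold or 2-fold uses this ratio unless said otherwise. Fold values printed for single genes carry no pseudocount, so a gene may exceed a fold by its printed values and not be counted. The genes compared were protein-coding ones averaging 1 FPKM or more. Depth was read from low FPKM of genes with 1 annotated transcript: values times transcript length, less 200 bases in the Nrn1-/- and 220 bases in the Nrn1+/- library, lay at most 0.1 from a whole multiple of 0.0251 FPKM times kb in 93.7% of 2566 Nrn1-/- values and of 0.019 in 93.7% of 2905 Nrn1+/- values. By chance 20% would. Intervals (95%) use the shortest principal transcript and cover counting error only. The 10 genes rested on an estimated 634 to 13655 fragments in Nrn1-/- cells and 1091 to 27758 in Nrn1+/- cells.

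Positions and transcripts are from GENCODE M21 on GRCm38, and promoter sequences from RefSeq on GRCm38.p6, with all 10 genes matched. The genes and lists were chosen with earlier results of these data known. The text names the 10 genes, all their relatives, and in each other list genes past 1.5-fold (up to 6) or the 2 largest. Foxp3, Txn1, Fkbp5 and Hsp90ab1 stand outside that rule and were chosen after their values were seen. For markers of other cell types only sums and genes at 0 are given, and a few genes that the rule covers are not reported here. Analysis used Python 3.11.15, pandas 2.3.3 and numpy 2.4.6, and the calculations were tested on simulated data.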

Additional observations from a re-analysis of the deposited data

How the results depend on the processing

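With 1 library per genotype no library could be left out. No paired analysis was possible because each genotype has 1 library. The alternatives were pseudocounts of 0.1 and 5 FPKM, 4 other scalings, keeping the highest row of a symbol, other filters and all rows in place of protein-coding ones. All 10 genes were lower under each alternative run on them, and 5 were at least 1.5-fold lower under each but the sum of 1000000, which gave 7. That setting gave a median log2 ratio of -0.81 for the 10 genes, against -0.52 as deposited, and of -0.23 for all genes, against 0.04. With the same protein-coding sum these medians were -0.65 and -0.08, a shift of -0.12 for all genes, and 746 genes were lower and 462 higher by at least 1.5-fold. The 395 genes at least 1.5-fold lower became 597 with a pseudocount of 0.1 FPKM, 140 with 5 FPKM, 1545 with a sum of 1000000 and 651 over all rows. The 750 higher became 443 with a pseudocount of 5 FPKM and 253 with a sum of 1000000. Genes past 1.5-fold were 65.5% higher as deposited, 56.8% after centring, 38.2% with the same protein-coding sum and 14.1% with a sum of 1000000. Over the lists, 512 recomputed counts and medians stayed within 1.5 times or within counting error and 109 did not. A scaling multiplies 1 library by a common factor, which shifts all ratios by construction. The cause of the other changes was not tested.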
